A study of Caenorhabditis elegans with 10 samples.

Results

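The transcripts described here belong to 9 genes of the Caenorhabditis elegans innate immune response, dod-21, dod-22, dod-24, C17H12.8, F55G11.8, irg-4, irg-5, K08D8.5 and sysm-1. They were taken as a named set of genes whose basal or infection-induced expression is known to need the p38 pathway, and the set was selected on intensities of these same arrays, its fed, fasted and strain differences being known when it was drawn up. Their levels and differences are therefore given as a description, with no test. The 9 genes were found by symbol on 11 of the 22548 probe sets tested, and 8 of them are among the 17118 genes on the arrays with a probe set of their own. C17H12.8 and K08D8.5 each have a second probe set, and dod-21 is measured only by a probe set that also carries the symbol of its neighbour cld-1, so its signal cannot be assigned to 1 of these 2 genes.

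Total RNA of whole adult animals was read on 10 arrays in 4 groups, with 3 arrays of mek-1 mutants kept with food, 3 of mek-1 mutants kept without food, 2 of mlk-1 mutants with food and 2 of mlk-1 mutants without. Animals were moved at day 2 of adulthood to plates with or without the bacterial food OP50-1, and were collected after 2 days, at adult day 4. Every animal was mutant for 1 of these 2 kinase genes, the labels give no allele, and wild-type animals were not analysed here. A strain difference in this text is thus mek-1 relative to mlk-1, neither strain is an unmutated control, and the signal of sek-1, a kinase gene of the p38 pathway itself, also differed between the strains on 1 of its 2 probe sets. No p38 mutant was among the groups, so the dependence on p38 in the name of the set was not measured on these arrays.

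MEK-1 and MLK-1 are kinases of a stress-activated cascade that leads to the JNK-like kinase KGB-1, MLK-1 acting above MEK-1. The p38 pathway runs from the adaptor TIR-1 through the kinases NSY-1 and SEK-1 to the p38 kinase PMK-1 and the transcription factor ATF-7, and in the intestine it sets the expression of secreted immune proteins both before and during infection. Many of these proteins carry a CUB-like domain. The dod genes take their name from lying downstream of DAF-16, the FOXO factor of insulin signalling, the irg genes from their response to infection, and sysm-1, also called T24B8.5, is widely used as a reporter of p38 activity.

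The deposited values are linear intensities with a floor just above 16, array medians from 70.6 to 75.1 and a highest value of 12763. Differences are given on the scale log2(intensity + 16), which compresses the differences of dim probe sets. Whether replicates are separate cultures is not in the labels, and SEs and p-values then measure only the spread between these samples, which may be technical. The mek-1 probe set read 66.5 to 139 on the 6 arrays labelled mek-1 and 1137 to 1387 on the 4 labelled mlk-1, while the mlk-1 probe sets did not separate the strains in fed animals. In fasted animals both mlk-1 probe sets were lower in mek-1 without overlap (17.3% of all genes). Their differences there were -0.41 and -0.40 (limma, adjusted p = 0.369 and 0.319). Both mek-1 arrays numbered 3 stood apart on the second principal component, at -30.1 and -30.9 against -10.5 to 23.8 for the other 8, and mek-1 fed replicate 3 had the highest summed signal of 7 body wall muscle genes, 8614. Whole animals were extracted, so fewer cells of a type and less RNA per cell cannot be told apart.

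In fed animals, 7 of the 9 genes were lower on every mek-1 array than on either mlk-1 array, without overlap. Over all genes 10.3% were lower without overlap in this comparison, and since the set was chosen with it in view nothing is read from that difference. The irg-5 transcript was higher on all 3 mek-1 arrays than on both mlk-1 arrays (over all genes, 10% were higher without overlap), and K08D8.5 overlapped. The median difference of the 9 genes, mek-1 minus mlk-1, was -2.86, beside -0.002 over all genes.

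The CUB-like gene dod-21 gave an intensity of 30.7, 43.5 and 28.4 in mek-1 fed, 27.98, 25.8 and 60.6 in mek-1 fasted, 966 and 2284 in mlk-1 fed, and 33.4 and 45.3 in mlk-1 fasted. Only the fed mlk-1 arrays were high, and the other 8 lay close together. The fed strain difference of dod-21 was -4.92 ± 0.36 (SE), and its fasting difference was -4.77 ± 0.40 in mlk-1 and 0.06 ± 0.33 in mek-1. The neighbouring genes dod-22 and F55G11.8, also CUB-like, showed the same layout at lower signal. The dod-22 intensity was 16.03, 20.7 and 18.6 in mek-1 fed, 18.4, 18.9 and 17.1 in mek-1 fasted, 146 and 369 in mlk-1 fed, and 30.8 and 26.8 in mlk-1 fasted. The F55G11.8 intensity was 18.6, 24.3 and 21.5 in mek-1 fed, 16.6, 16.02 and 17.98 in mek-1 fasted, 207 and 394 in mlk-1 fed, and 23.6 and 33.1 in mlk-1 fasted. For both genes all 6 mek-1 arrays were near the floor, so the differences from them depend on the added constant. The fed strain difference of dod-22 was -2.86 ± 0.28, or -3.66 with no constant, and that of F55G11.8 was -3.01 ± 0.22, or -3.74 with no constant.

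**Figure D1:**
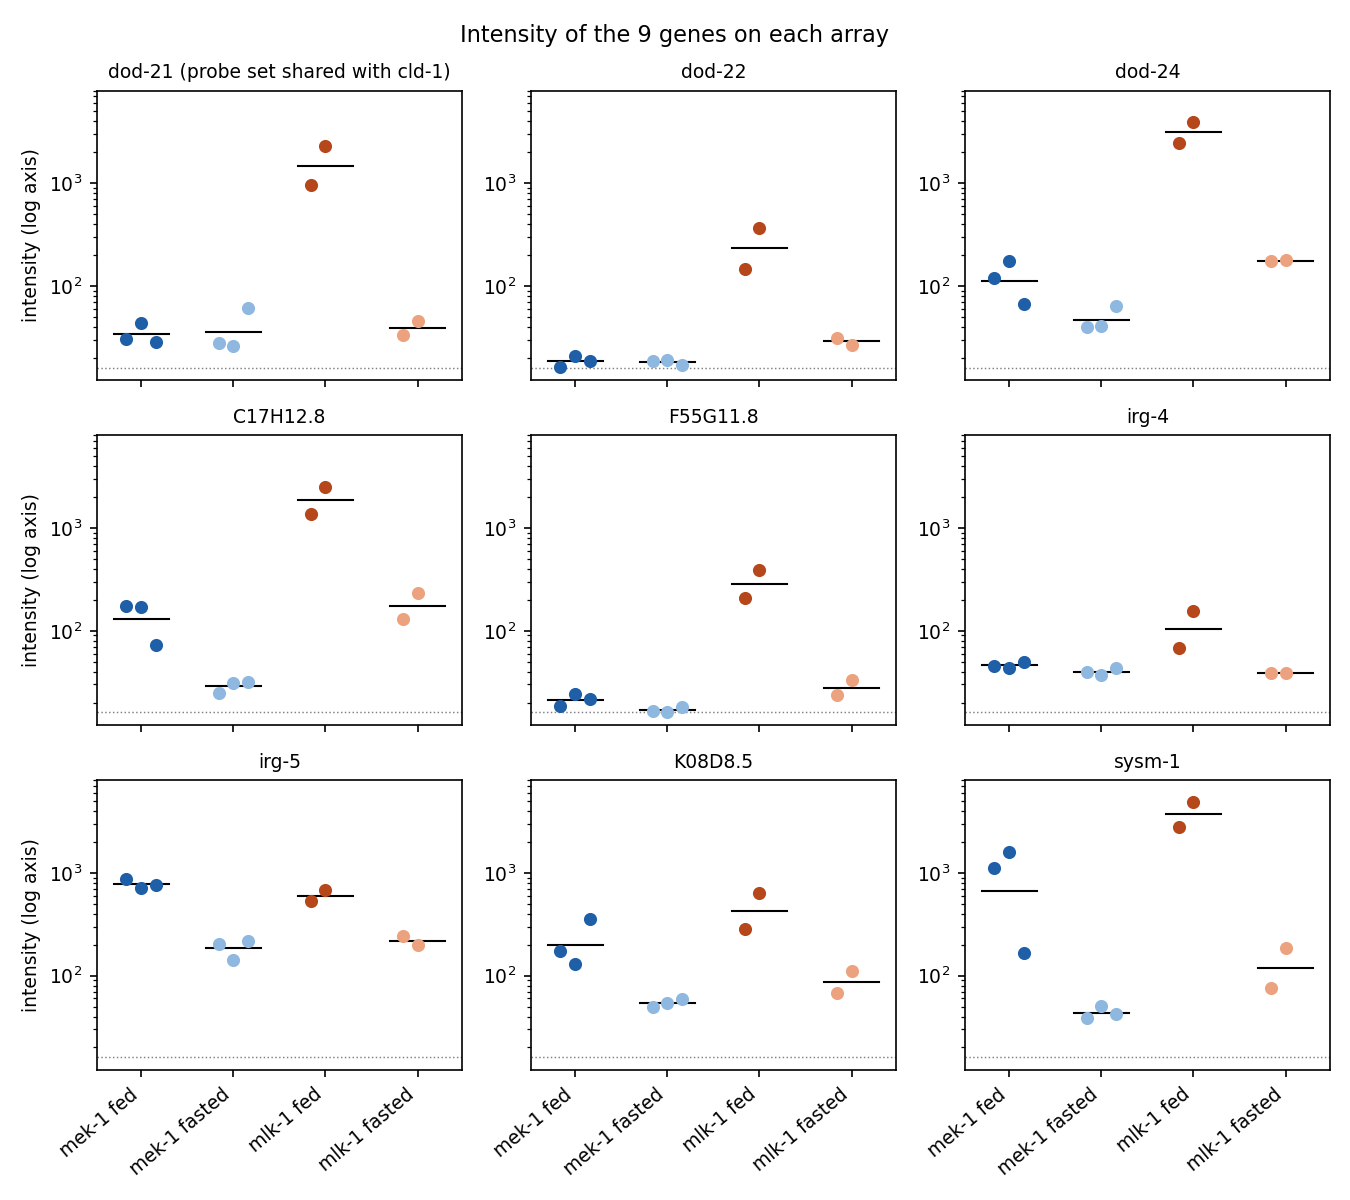
Intensity (log axis) of each of the 9 genes on each of the 10 arrays, by group. The solid line is the group mean of the log intensity with no constant added (geometric mean), and the dotted line is the floor of 16. For 7 of the genes the 2 mlk-1 fed arrays lie above all others, for K08D8.5 one mek-1 fed array lies between them, and for irg-5 the fed arrays of both strains lie above the fasted ones.

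The CUB-like genes dod-24 and C17H12.8 were again highest in fed mlk-1 animals, but for these the strains also differed without food. The dod-24 intensity was 119.4, 177 and 67.2 in mek-1 fed, 39.5, 40.7 and 63.1 in mek-1 fasted, 2460 and 3976 in mlk-1 fed, and 173 and 180 in mlk-1 fasted. Without food the 2 strains stayed apart for dod-24, the mlk-1 fasted arrays reaching about the level of the highest fed mek-1 array. Its strain difference was -4.60 ± 0.33 in fed and -1.61 ± 0.33 in fasted animals, and its fasting difference was -4.03 ± 0.37 in mlk-1 and -1.04 ± 0.30 in mek-1.

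The C17H12.8 intensity was 176, 170 and 73.0 in mek-1 fed, 24.7, 30.8 and 31.7 in mek-1 fasted, 1381 and 2509 in mlk-1 fed, and 130 and 236 in mlk-1 fasted. Every fasted array was below every fed array of its own strain, and mek-1 was below mlk-1 under both conditions, with a strain difference of -3.68 ± 0.38 in fed and -2.09 ± 0.38 in fasted animals. The second probe set of C17H12.8 kept this order of groups, with 57.9 to 131 in mek-1 fed, 18.5 to 22.5 in mek-1 fasted, 945 and 1756 in mlk-1 fed, and 68.2 and 169 in mlk-1 fasted.

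The sysm-1 gene encodes a small secreted protein with a toxin-like ShK domain. Its intensity was 1114, 1605 and 166 in mek-1 fed, 38.8, 50.3 and 42.5 in mek-1 fasted, 2804 and 4969 in mlk-1 fed, and 75.1 and 186 in mlk-1 fasted. Both strains were lower without food, with a fasting difference of -3.54 ± 0.71 in mek-1 and -4.79 ± 0.88 in mlk-1. The fed strain difference of sysm-1 was -2.44 ± 0.80 and rested in good part on mek-1 fed replicate 3, since it was -1.47 without that array. On the same array K08D8.5 was the highest of the 3 fed mek-1 arrays while dod-24 and C17H12.8 were the lowest, so the genes of the set did not move together on it.

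The CUB-like gene K08D8.5 was lower without food in both strains and was less separated by strain. Its intensity was 173, 129 and 358 in mek-1 fed, 49.8, 54.6 and 58.8 in mek-1 fasted, 282 and 637 in mlk-1 fed, and 68.4 and 112 in mlk-1 fasted. The fasting difference of K08D8.5 was -1.63 ± 0.37 in mek-1 and -2.09 ± 0.46 in mlk-1. In fed animals the strains overlapped on this probe set, with mek-1 replicate 3 above mlk-1 replicate 1, and the difference was -1.02 ± 0.42. It was -1.59 without mlk-1 fed replicate 1 and -0.46 without mlk-1 fed replicate 2. On the second probe set of K08D8.5 the fed groups did not overlap, but only just, with 195.4 as the highest mek-1 and 197.9 as the lowest mlk-1 value.

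The infection response gene irg-4 had the smallest range over the arrays, with an intensity of 45.2, 43.9 and 49.9 in mek-1 fed, 39.5, 36.7 and 43.3 in mek-1 fasted, 68.6 and 154 in mlk-1 fed, and 38.9 and 38.4 in mlk-1 fasted. Both mlk-1 fed arrays were above the rest, but they differed from each other more than the lower of them did from fed mek-1. The fed strain difference of irg-4 was -0.95 ± 0.23, and its fasting difference in mlk-1 was -1.14 ± 0.26. Without mlk-1 fed replicate 2 these were -0.44 and -0.63.

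The infection response gene irg-5 followed food more than strain. Its intensity was 877, 718 and 772 in mek-1 fed, 203, 143 and 217 in mek-1 fasted, 530 and 680 in mlk-1 fed, and 244 and 198 in mlk-1 fasted. All 5 fed arrays were above all 5 fasted ones, and the fed mek-1 arrays were slightly above the fed mlk-1 arrays. The fasting difference of irg-5 was -1.998 ± 0.17 in mek-1 and -1.38 ± 0.20 in mlk-1, and its strain difference was 0.38 ± 0.19 in fed and -0.23 ± 0.19 in fasted animals. It was the only gene of the 9 with a larger fasting difference in mek-1 than in mlk-1.

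**Figure D2:**
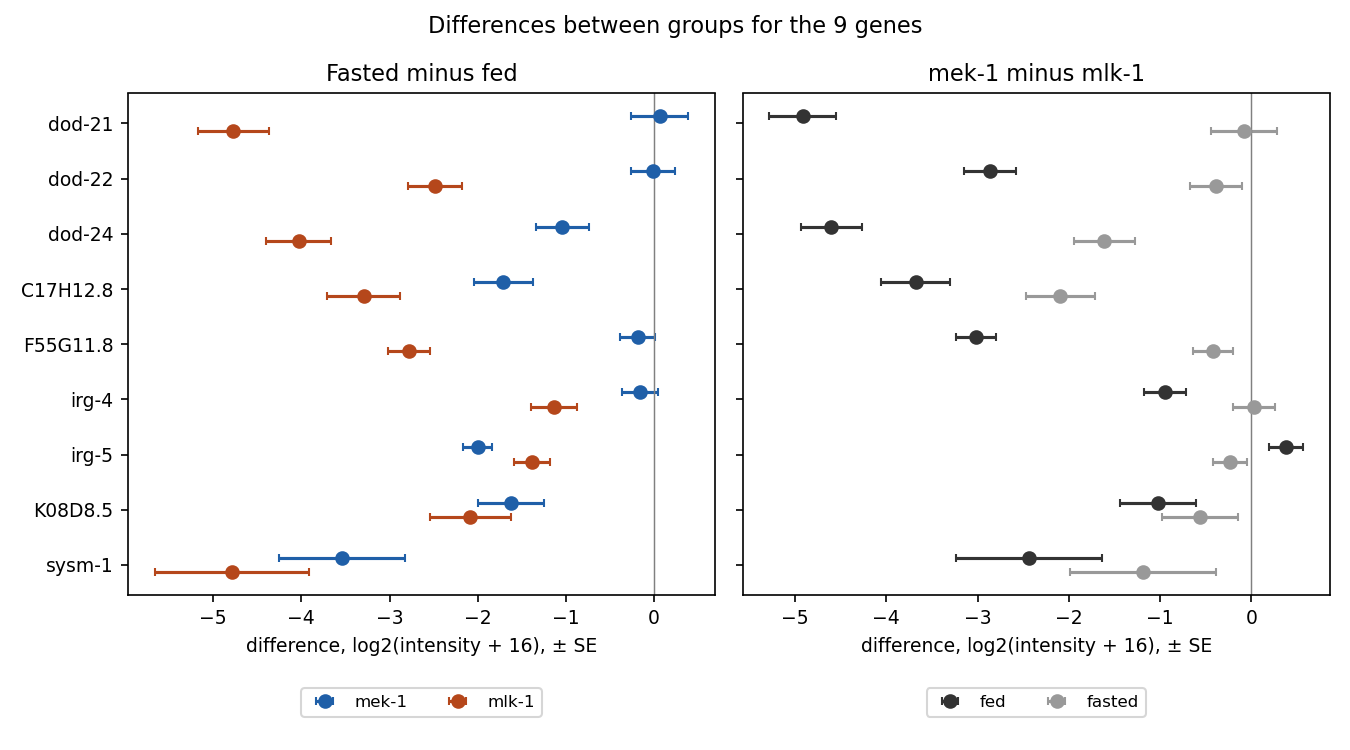
Differences of the 9 genes in log2(intensity + 16), with SE bars from the limma fit over 10 arrays, as fasted minus fed within each strain and as mek-1 minus mlk-1 under each condition. The fed strain difference runs from -4.92 for dod-21 to 0.38 for irg-5, and in fasted animals it runs from -2.09 for C17H12.8 to 0.03 for irg-4.

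Fasting thus went with lower signal of all 9 genes in mlk-1, where no fasted array reached a fed one (16.5% of all genes were lower without overlap). In mek-1 it did so for 7, since dod-21 and dod-22 overlapped (9.36% of all genes). Among these 7, F55G11.8 at -0.19 ± 0.19 and irg-4 at -0.16 ± 0.21 differed by no more than their SE, and the F55G11.8 arrays of mek-1 lay near the floor throughout. These SEs come from a spread shared by all 4 groups, which was widest for both genes in mlk-1 fed. On the log2 scale the SD of F55G11.8 was 0.11 in mek-1 fed, 0.04 in mek-1 fasted and 0.62 in mlk-1 fed. That of irg-4 was 0.07, 0.09 and 0.71 in the same groups. The median fasting difference of the 9 genes was -2.78 in mlk-1 and -1.04 in mek-1, beside 0.04 over all genes in each. The difference between these 2 fasting effects, mek-1 minus mlk-1, was 4.83 ± 0.52 for dod-21, 2.99 ± 0.47 for dod-24, 2.59 ± 0.31 for F55G11.8, 2.47 ± 0.40 for dod-22, 1.58 ± 0.54 for C17H12.8, 0.98 ± 0.33 for irg-4, 0.46 ± 0.59 for K08D8.5, -0.61 ± 0.26 for irg-5 and 1.25 ± 1.13 for sysm-1. For K08D8.5 it was smaller than its SE and for sysm-1 about as large. In fasted animals 6 of the 9 genes were lower in mek-1 without overlap (17.3% of all genes), dod-21, irg-4 and irg-5 overlapped, and the median strain difference was -0.42 (-0.69 with no added constant and -0.19 with a constant of 64). The strain and fasting comparisons share arrays, the fed mlk-1 arrays standing in both the fed strain difference and the mlk-1 fasting difference.

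The 2 fed mlk-1 arrays that carry these differences also differed from each other. All 9 genes were higher on replicate 2 than on replicate 1, by 0.35 for irg-5 up to 1.24 for dod-22, with a median of 0.88 beside 0.03 over all genes. A difference of 0.88 or more between these 2 arrays was found for 0.97% of all genes. Without mlk-1 fed replicate 2 the fed strain difference was -4.30 for dod-21, -2.24 for dod-22, -2.58 for F55G11.8, -4.26 for dod-24 and -3.25 for C17H12.8. The direction and the absence of overlap of these 5 genes did not rest on that array.

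**Figure D3:**
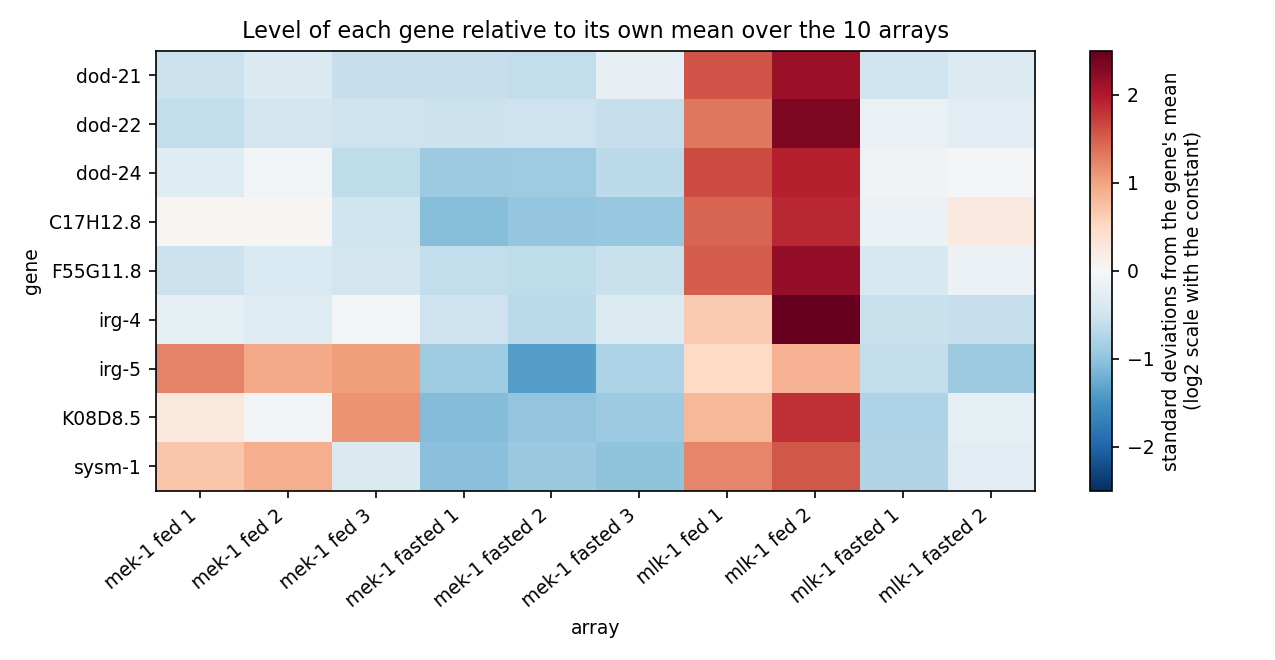
Level of each of the 9 genes on each array as standard deviations from that gene's mean over 10 arrays, on the log2(intensity + 16) scale. The mlk-1 fed columns are the highest for all genes but K08D8.5 and irg-5, and for irg-5 the 3 highest arrays are the mek-1 fed ones. Replicate 3 of mek-1 fed is low for sysm-1 and high for K08D8.5.

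Across the 10 arrays, which share their groups, 8 of the genes had a Pearson correlation of 0.851 (K08D8.5) to 0.946 (dod-24 and C17H12.8) with the mean of the other 8, and irg-5 had 0.547. Among pairs of genes the correlation ran from 0.322 for dod-22 with irg-5 to 0.991 for dod-22 with F55G11.8. Over all genes on the arrays, the 5 whose values ran most like the mean profile of the 9 were drd-50 (0.984), F55G11.3 (0.971), scl-24 (0.967), T01C8.3 (0.957) and F49F1.7 (0.956). Taken gene by gene, F49F1.7 ran most like dod-21, dod-22 and F55G11.8, fipr-26 like dod-24 and C17H12.8, C17H12.6 like irg-4, ctsa-2 like irg-5, F25B4.8 like K08D8.5, and mbug-1 like sysm-1. These correlations were 0.955 to 0.994 and mostly restate the order of the 4 groups.

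Members of the set lie near each other in the genome. In the gene order of the RefSeq annotation of the WBcel235 assembly, K08D8.5, dod-21, dod-24, F55G11.8 and dod-22 fall within a stretch of 29 protein-coding genes on chromosome IV, C17H12.8 and irg-4 lie elsewhere on chromosome IV, irg-5 on chromosome V and sysm-1 on chromosome II. Of the other genes in the stretch 19 were measured, and their median fed strain difference was -0.03. F55G11.2, the CUB-like gene next to dod-22, was the one of the 19 that was lower in fed mek-1 past the limma threshold (adjusted p = 0.00294) in the fit without a block, at -3.17 ± 0.32. Counted over all 56 measured neighbours of the 9 genes, those lower in fed mek-1 numbered 1 in that fit, 2 with the replicate block or without mek-1 fed replicate 3, and 4 without mlk-1 fed replicate 1. This number was also 2 with no added constant, quantile normalization, the dimmest 30% of probe sets left out, or trended and robust variance. The F55G11.2 intensity was 31.6, 28.1 and 50.8 in mek-1 fed, 42.2, 31.4 and 43.2 in mek-1 fasted, 290 and 695 in mlk-1 fed, and 32.6 and 37.0 in mlk-1 fasted. Only the fed mlk-1 arrays were high, as for dod-22. The next gene, mbug-1, had a fed strain difference of -2.16 ± 0.46 (adjusted p = 0.104). Of the genes lying between the members, C32H11.4 had a difference of -1.30 ± 0.23 (limma, adjusted p = 0.0534), while dct-19 had 0.01, F55G11.7 0.10 and irg-6 0.04.

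**Figure D4:**
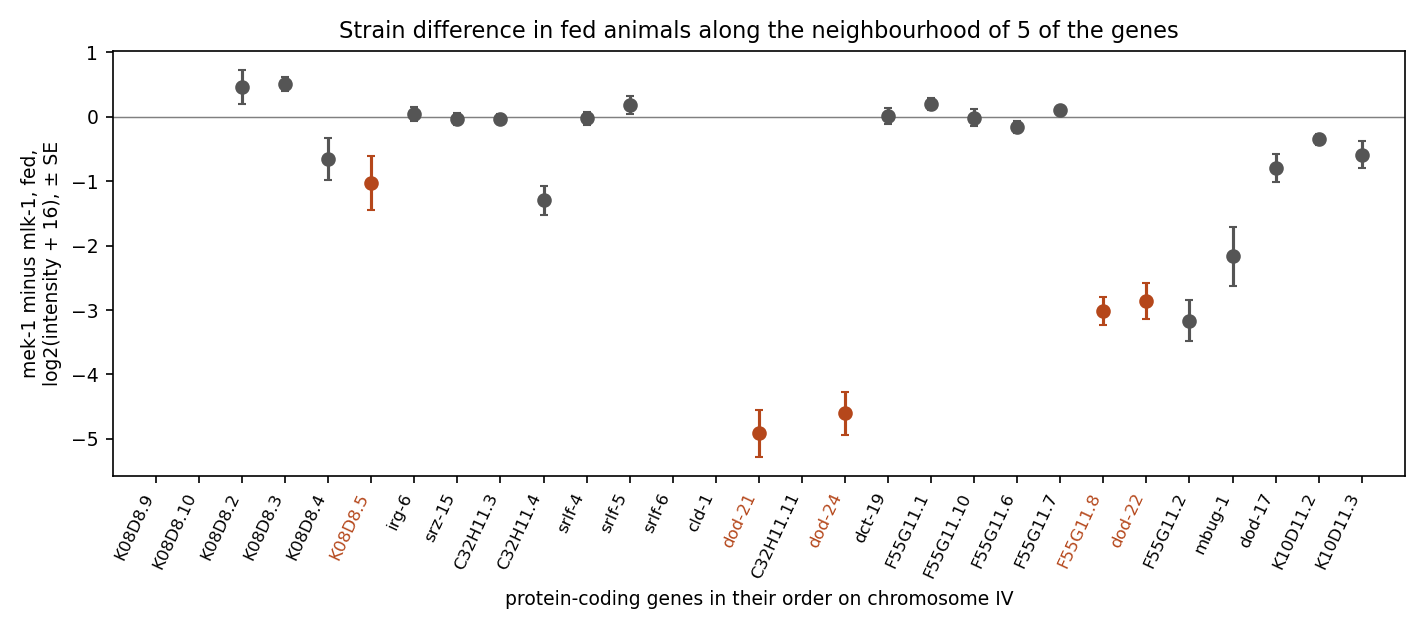
Fed strain difference (mek-1 minus mlk-1, log2(intensity + 16), with SE bars) of the protein-coding genes along the stretch of chromosome IV, in their order and not to distance, with the 5 genes of the set in orange and genes with no value of their own left without a point. The low values fall at dod-21 and dod-24 and at the run of F55G11.8, dod-22, F55G11.2 and mbug-1, and the genes from dct-19 to F55G11.7 lie near 0.

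The genes of the p38 cascade itself were examined on the same arrays. Of 13 cascade genes 11 had a probe set of their own, and 0 passed the limma threshold for fasting in mek-1, fasting in mlk-1, the difference of these effects or the fed strain difference. At an unadjusted p under 0.05 the counts were 1 lower, 3 higher, 1 lower and 2 higher in that order. With the replicate number as a block 1 was lower without food in mek-1. With the replicate pairs within each strain as the block 1 was lower and 2 were higher without food in mek-1. One of these 2 was sek-1, on its brighter probe set (limma, adjusted p = 0.0371 in that fit). The p38 kinase gene pmk-1 differed between fed strains by 0.20 ± 0.20 (limma, adjusted p = 0.911), the adaptor gene tir-1 by -0.04 ± 0.14 (adjusted p = 0.988), and the 3 probe sets of the transcription factor gene atf-7 by -0.12 to -0.01. In fasted animals 1 of the 11 was lower in mek-1, the phosphatase gene vhp-1, at -0.55 ± 0.11 (adjusted p = 0.047), and 14 of 18 alternatives ended this call, among them leaving out any 1 array other than mek-1 fed replicate 3.

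The MAPK kinase gene sek-1, which acts directly above PMK-1, has 2 probe sets that disagreed. The brighter, which represents the gene in the counts above, read 180 to 349 in mek-1 and 186 to 240 in mlk-1, with a fed strain difference of 0.24 ± 0.20 (limma, adjusted p = 0.877). The other read 28.6, 28.6 and 29.0 in mek-1 fed, 29.7, 35.9 and 40.8 in mek-1 fasted, 243 and 257 in mlk-1 fed, and 322 and 335 in mlk-1 fasted. On this probe set every mek-1 array was low and every mlk-1 array high, and the strain difference was -2.57 ± 0.10 in fed (adjusted p = 1e-05) and -2.75 ± 0.10 in fasted animals (adjusted p = 2.11e-06), a call kept in all alternatives. Which part of the sek-1 transcript each probe set reads was not analysed here. R03G5.6, the neighbour of sek-1 in the gene order and named here after its values were seen, read no more than 16.01 on all mek-1 arrays on one of its probe sets and 85.2 to 131 on the mlk-1 arrays (fed strain difference -1.74 ± 0.08, limma, adjusted p = 4.12e-05). Its second probe set was also lower in fed mek-1, at -0.73 ± 0.11 (adjusted p = 0.0211). As background, sek-1 and mek-1 are both on chromosome X, and a widely used mek-1 mutant stock is reported to carry a second lesion, in sek-1. The labels name neither the allele nor the stock used here, so loss of mek-1 and a change in sek-1 cannot be told apart in any strain difference of these genes. The low sek-1 signal moved with strain as 7 of the 9 genes did in fed animals, and its part in their values was not tested.

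The lists of other genes were also drawn up with earlier results of these data known. Nothing is therefore read from their counts beside the shares of all genes. Other CUB-like genes, 20 measured of a hand-made list of 21, were lower without food in mek-1 past the threshold in 9 cases (3.49% of all genes) and higher in 0, with a median of -0.77. Among them were mbug-1 at -3.29 ± 0.41 (limma, adjusted p = 0.00267), dod-23 at -2.35 ± 0.12 (adjusted p = 3.53e-05) and K08D8.4, the neighbour of K08D8.5, at -1.97 ± 0.29 (adjusted p = 0.00638). In mlk-1, 4 of the 20 were lower (0.917% of all genes) with the same median of -0.77, among them mbug-1, at -4.37 ± 0.50 (adjusted p = 0.00346), and F55G11.2, at -3.20 ± 0.35 (adjusted p = 0.00259). The mlk-1 count was 9 with the replicate number as a block. It was also 9 without mlk-1 fed replicate 1, and 2 without mlk-1 fed replicate 2, without either mlk-1 fasted array, without mek-1 fed replicate 2 or without any 1 mek-1 fasted array. The difference of fasting effects passed for 1 of the 20, dod-23, at -1.60 ± 0.19 (adjusted p = 0.0256; 0.0584% of all genes were called in this direction), a call lost without any 1 mek-1 array, mlk-1 fed replicate 1 or mlk-1 fasted replicate 2. In the other direction 0 of the 20 passed, with 3 at an unadjusted p under 0.05, and F55G11.2 had 3.27 ± 0.45 (adjusted p = 0.0586). With quantile normalization, without the dimmest 30% of probe sets, or with trended and robust variance, 1 of the 20 passed. That count was 1 with the replicate block, with no added constant or without mlk-1 fed replicate 2, and 2 without mlk-1 fed replicate 1.

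The median strain difference of these other CUB-like genes was -0.24 in fed animals, and 1 of 20, F55G11.2, passed the threshold (0.485% of all genes were lower). That count was 2 with the replicate block or without mek-1 fed replicate 3, and 4 without mlk-1 fed replicate 1. The fed count was also 2 with no added constant, quantile normalization, the dimmest 30% of probe sets left out, or trended and robust variance. In fasted animals 2 of 20 were lower in mek-1 (1.4% of all genes), K08D8.4 at -1.87 ± 0.32 (limma, adjusted p = 0.0306) and dod-23 at -1.12 ± 0.13 (adjusted p = 0.0072). That count was 4 with the block and 5 without mek-1 fed replicate 3. It was 1 without mek-1 fed replicate 1, without any 1 mek-1 fasted array or without mlk-1 fasted replicate 1, and 0 without mlk-1 fasted replicate 2.

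Of 10 other genes known as effectors of the p38 pathway, all measured, 5 were lower without food in mek-1 (3.49% of all genes). In mlk-1 6 were lower (0.917% of all genes), and the medians were -1.55 and -1.998. In mek-1 the aspartyl protease gene asp-17 changed by -3.76 ± 0.36 (limma, adjusted p = 0.000619), the lysozyme gene lys-2 by -3.45 ± 0.52 (adjusted p = 0.00746) and the P-type ATPase gene catp-3 by -2.99 ± 0.26 (adjusted p = 0.000386). In mlk-1, drd-50 changed by -3.77 ± 0.34 (adjusted p = 0.00127) and asp-17 by -3.36 ± 0.44 (adjusted p = 0.00696). The mlk-1 count of 6 was 2 without mlk-1 fed replicate 2 and 1 without either mlk-1 fasted array, and asp-17 was among the calls lost without each of these. In fed animals 2 of the 10 were lower in mek-1 (0.485% of all genes), drd-50 at -2.89 ± 0.31 (adjusted p = 0.00482) and the mucin-like gene mul-1 at -1.69 ± 0.16 (adjusted p = 0.00269). With the replicate block, or without mek-1 fed replicate 3, there were 4. In fasted animals 0 of the 10 passed the threshold, with 5 lower at an unadjusted p under 0.05, and the count was 1 with the block and 1 without each of mek-1 fed replicate 3, mlk-1 fed replicate 1 and mlk-1 fed replicate 2. The difference of fasting effects passed for 0 of the 10, with 3 higher and 1 lower at an unadjusted p under 0.05, and for 1 without mlk-1 fed replicate 1.

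Among 12 immune response genes known to be induced without p38, the fasting comparison went in both directions, with a median of -0.05 in mek-1 and 0.09 in mlk-1. In mek-1, 4 were lower and 1 higher (3.49% of all genes were lower and 1.39% higher). In mlk-1 2 were lower (0.917% of all genes) and 0 higher, with 2 higher at an unadjusted p under 0.05. The lower genes in both strains were irg-7, at -3.14 ± 0.26 in mek-1 (limma, adjusted p = 0.000297) and -2.77 ± 0.31 in mlk-1 (adjusted p = 0.00324), and irg-3, at -2.29 ± 0.13 in mek-1 (adjusted p = 7.99e-05) and -2.20 ± 0.16 in mlk-1 (adjusted p = 0.000432). The invertebrate lysozyme gene ilys-3 rose by 2.28 ± 0.40 in mek-1 (adjusted p = 0.0145), a call lost without mek-1 fasted replicate 1 or 2. With the block the counts of higher genes were 2 in mek-1 and 3 in mlk-1, and without mek-1 fed replicate 2 or 3 the mlk-1 count was 1. For the strain, 1 of the 12 was higher in fed mek-1 (0.158% of all genes), clec-60, by 1.86 (adjusted p = 0.035), which was lost in 11 of 18 alternatives, among them leaving out any 1 array other than mek-1 fed replicate 2 and mek-1 fasted replicate 2. In fasted animals 0 of the 12 passed, with 1 lower at an unadjusted p under 0.05.

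Of the 7 other dod genes 1 was higher without food in mek-1 (1.39% of all genes), dod-18, by 0.35 ± 0.08 (limma, adjusted p = 0.0478, lost without any 1 array). In mek-1 2 were lower (3.49% of all genes), dod-19 at -4.19 ± 0.27 (limma, adjusted p = 0.000105) and dod-23. The same 2 were lower in mlk-1 (0.917% of all genes), dod-19 at -2.49 ± 0.33 (adjusted p = 0.0076) and dod-23 at -0.75 ± 0.14 (adjusted p = 0.0458). The mlk-1 count was 0 without mlk-1 fed replicate 2 or either mlk-1 fasted array, and 1 without mek-1 fed replicate 1 or 2 or any 1 mek-1 fasted array. In fed animals 0 of the 7 differed by strain past the threshold, with 1 higher and 1 lower at an unadjusted p under 0.05, and 1 was lower without mlk-1 fed replicate 1. In fasted animals 3 were lower in mek-1 (1.4% of all genes). There were 1 without mek-1 fasted replicate 1 or mlk-1 fasted replicate 1 and 0 without mlk-1 fasted replicate 2. Of 13 measured gut transcription factor and regulator genes, 0 passed the limma threshold in any of the 5 comparisons, with at most 3 lower or 1 higher at an unadjusted p under 0.05 in each. With the replicate block 1 was higher and 2 were lower without food in mek-1, 1 was higher without food in mlk-1, and 1 was lower in fasted mek-1.

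Marker genes of the intestine, epidermis and body wall muscle had lower medians without food, as the 9 genes did. The intestinal signal summed over 13 genes was 14642 to 18336 in mek-1 fed, 5011 to 6586 in mek-1 fasted, 17022 to 20605 in mlk-1 fed and 7614 to 8307 in mlk-1 fasted, with higher sums in fed than in fasted animals of either strain. Past the limma threshold 8 of the 13 were lower without food in mek-1 (3.49% of all genes) and 3 in mlk-1 (0.917% of all genes). Between fed strains 0 of the 13 differed past the threshold, with 3 higher and 0 lower in mek-1 at an unadjusted p under 0.05, and 1 was higher with the replicate block. In fasted animals 3 were lower in mek-1 (1.4% of all genes). The fasting count in mlk-1 was 1 without mlk-1 fed replicate 1 and 0 without any other 1 mlk-1 array. The count in fasted animals was 1 without mek-1 fed replicate 1 and 0 without any 1 fasted array. The median fed strain difference of the 13 markers was 0.24, beside -2.86 for the 9 genes. The summed signal of 8 germline genes was 15603 to 22311 over all arrays, with no separation of the groups, and 0 of the 8 passed the threshold or an unadjusted p under 0.05 in any comparison. That of 7 body wall muscle genes was 3192 to 8614 in mek-1 fed, 1602 to 2798 in mek-1 fasted, 2383 to 2546 in mlk-1 fed and 1610 to 1747 in mlk-1 fasted. Without food 4 of the 7 muscle genes were lower in mek-1 past the threshold (3.49% of all genes) and 0 in mlk-1. The calls of tnt-2, unc-27 and unc-54 among these 4 were not kept in all alternatives. The muscle genes had a median fed strain difference of 1.12, with 0 of 7 past the threshold and 6 higher in mek-1 at an unadjusted p under 0.05. The summed signal of 8 epidermal genes was 11688 to 17487 in mek-1 fed, 5555 to 12392 in mek-1 fasted, 8895 to 14013 in mlk-1 fed and 6016 to 6487 in mlk-1 fasted, with a median fasting difference of -1.23 in mek-1 and -0.86 in mlk-1. Of the 8 epidermal genes 1, dpy-7, was lower without food in mek-1 past the threshold (3.49% of all genes), and 0 in mlk-1. Of 6 neuronal genes 1, unc-64, was lower without food in mek-1 past the threshold, and 0 in mlk-1. Neither of these calls was kept in all alternatives. No marker of these lists was near the floor. The part of intestinal, epidermal and muscle signal in the values of the 9 genes was not tested.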

How the data were processed

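Total RNA was labelled by 3' in vitro transcription and hybridised to 1-colour arrays, per the labels' protocols. The deposited intensity values are linear, with 1 value per probe set and array. The summary and normalization the authors used are not given in the sources used here. The table holds 22625 probe sets, and 77 controls were left out. Of the other 22548, 20766 have 1 gene symbol, 887 several and 895 none in the platform annotation. A gene was represented by the probe set with the highest mean among those with 1 symbol (17118 genes). Every column was matched to a sample by its label, and 0 were left over.

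The 9 genes and the gene lists were chosen with earlier results of these data known. The lists (p38 cascade, KGB-1 cascade, CUB-like, p38 effector, p38-independent response, other dod, gut factor and tissue marker genes) were made by hand, and the CUB-like list was not checked against domain annotation. Of the KGB-1 cascade, 11 genes were measured and in the fits without a block mek-1 and vhp-1 passed the threshold in at least 1 comparison and the others in none. With the replicate block 4 were lower without food in mek-1 and 1 was higher in mlk-1. In each list the genes with the largest change past the threshold in each direction, at most 3, were eligible to be named, beside the 9 genes, their neighbours and the cascade genes. The genes most like the set in profile were the 5 with the highest correlation with its mean. Promoter and protein sequences were not analysed here.

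The model gave each group its own mean of log2(intensity + 16) over all 10 arrays (limma 3.58.1, R 4.3.3, lmFit then eBayes, 6 residual degrees of freedom). Tests were two-sided, with Benjamini-Hochberg adjustment across the 22548 probe sets of a comparison and a threshold of 0.05. The fit was also run on simulated data with independent noise on each array and differences placed in mek-1 fasted only, on brighter probe sets. That simulation had no link between arrays of the same replicate number and no floor, so it does not cover these features of the data. The number of arrays limits the precision, and the floor limits it for dim probe sets.

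Arrays with the same replicate number deviated together from their group means. In mek-1 the correlation of same-numbered arrays was at least 0.440 and in mlk-1 it was 0.352, while arrays of different number in mek-1 had at most -0.02. Deviations cancel out within a group, so a positive value for same-numbered arrays pushes the others down. In mlk-1, with 2 arrays per group, the value for different numbers is -0.352 by construction. Fits with the replicate number as a block were run beside the fits without it. Other alternatives were no constant, a constant of 64, quantile normalization, leaving out the dimmest 30% of probe sets or those ending in _s_at or _x_at, trended and robust variance, and leaving out each array. Leaving out both mek-1 arrays numbered 3 was added after seeing the data.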

Additional observations from a re-analysis of the deposited data

Results flagged for a closer look

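The test of the difference between the fasting effects of the 2 strains singled out dod-23 and mek-1 among the genes named here other than the 9, whose own differences are given as a description. The fasting effect of dod-23 in mek-1 minus that in mlk-1 was -1.60 ± 0.19 (limma, adjusted p = 0.0256), with a decrease of 2.35 in mek-1 and of 0.75 in mlk-1. The adjusted p ran from 0.00238 to 0.111 over 19 alternatives, and the call was lost in 9 of them. They were leaving out any 1 mek-1 array, mlk-1 fed replicate 1, mlk-1 fasted replicate 2, or both mek-1 arrays numbered 3.

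For the mek-1 transcript the same difference was -1.03 ± 0.12 (limma, adjusted p = 0.0244), and the call was lost in 10 of 19 alternatives. Its intensity fell from 119.2 to 139 in fed to 66.5 to 72.5 in fasted mek-1 mutants, and was 1137 and 1138 in fed and 1350 and 1387 in fasted mlk-1 mutants. Groups hold 2 or 3 arrays, so single arrays were not tested for standing apart from their group.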

How the results depend on the processing

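Of the 832 differences of the 9 genes recomputed under the alternatives, 773 moved by less than the spread between replicates and 59 by more. Several alternatives could not move a given difference or its sign. Among them were trended and robust variance, leaving out dim probe sets, and leaving out an array of a group outside the comparison. The replicate block likewise left the fasting differences unchanged. The count of 773 and the signs kept are thus partly fixed in advance. The sign held under all alternatives for 40 of the 45 differences, and the other 5 were the fasting effect of dod-21 and dod-22 in mek-1, the fasted strain difference of dod-21 and irg-4, and the difference of fasting effects of K08D8.5. The median of the 9 genes was -0.69 for fasting in mek-1 with a constant of 64. For fasting in mlk-1 it was -3.35 with no constant and -1.93 with 64, and for the fed strain difference -3.66 and -2.04. The median difference of fasting effects was 1.25 with no constant and 1.18 without both mek-1 arrays numbered 3. Leaving out 1 array, the medians ran from -1.24 to -0.76 (fasting in mek-1), -3.22 to -2.34 (fasting in mlk-1), 1.16 to 2.01 (difference of fasting effects), -3.45 to -2.24 (fed strain) and -0.58 to -0.37 (fasted strain). Without probe sets ending in _s_at or _x_at no median was computed, since dod-21, dod-24 and the K08D8.5 probe set drop out.

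The number of probe sets past the threshold was 1023 for fasting in mek-1, 309 for fasting in mlk-1, 17 for the difference of these effects, 136 for the fed and 330 for the fasted strain difference. With the replicate number as a block these counts were 3243, 1232, 42, 427 and 1033. The last 2 rest on linking the replicate numbers of the 2 strains, which the labels do not state. With the replicate pairs within each strain as the block the first 3 were 3272, 1316 and 50, and the strain differences cannot be fitted. Among the block counts not given beside the results, the other dod genes went from 0 to 1 higher for fasting in mlk-1. For the difference of effects the other dod genes went from 1 to 2 lower and the p38-independent genes from 0 to 1 lower. The intestinal markers went from 0 to 1 higher in fasted mek-1. For fasting in mek-1 the counts of lower genes rose from 9 to 11 for other CUB-like genes and from 8 to 11 for intestinal markers. They rose from 2 to 3 for other dod genes, from 5 to 6 for other p38 effectors and from 4 to 5 for p38-independent genes. Further counts of neighbours, intestinal markers and effectors also rose with the block. Without _s_at and _x_at probe sets the first 3 counts were 607, 193 and 11, and fewer probe sets are tested there. Without both mek-1 arrays numbered 3 the counts were 649 for fasting in mlk-1 and 10 for the difference of effects, and the cause was not tested. Leaving out 1 array, the counts ran from 465 to 1029, 100 to 444, 6 to 30, 55 to 134 and 37 to 457 in the same order. Signal near the floor limits the size of the differences of dod-22 and F55G11.8.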
